A study of Mus musculus with 9 samples.

Results

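The clock output transcription factors are the genes through which the circadian clock of a liver cell passes its rhythm on to metabolism. Here they comprised 8 genes, picked by symbol and matched by Ensembl gene ID: the PAR bZIP activators Dbp, Tef and Hlf, the bZIP repressor Nfil3, the nuclear receptor gene Rora, the E-box repressors Bhlhe40 and Bhlhe41, and Usp2, which encodes a deubiquitinating enzyme and not a transcription factor. All 8 were among the 45513 genes of the deposited table, and all 8 were among the 12102 genes that passed the filter on low counts. Poly(A)-enriched liver RNA of C57BL/6 mice was sequenced on an Ion Torrent instrument after 9 weeks of diet and treatment, with 9 libraries in 3 groups of 3: a high fat diet with B-LGND2, the same diet with vehicle, and a normal diet with vehicle. B-LGND2 is known here by its code name alone, and the series title presents it as a ligand of estrogen receptor beta. All groups are of the same strain, and no allele or transgene is named. The sources used here do not give age, sex, dose, diet make-up or when in the day livers were taken. The labels give 3 samples per group without saying more about their origin, so the p-values reflect only how far these samples differ, which may be technical.

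In the mammalian clock, CLOCK and BMAL1 (encoded by Arntl) activate genes with E-boxes, among them the Per, Cry and Nr1d genes and Dbp, and PER and CRY proteins then repress CLOCK and BMAL1. DBP, TEF and HLF activate genes that carry a D-box, and NFIL3 represses through the same site. RORA activates and REV-ERB proteins (encoded by Nr1d1 and Nr1d2) repress through a shared response element, which is how Arntl and Nfil3 come to be expressed at another time of day than Dbp. BHLHE40 and BHLHE41, also called DEC1 and DEC2, bind E-boxes and repress. In liver these rhythms reach drug, heme and lipid metabolism, and the transcripts swing strongly over the day.

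Matches to binding motifs are shown first, among them motifs through which clock genes and their outputs are known to act on each other. They are matches of letters alone, and binding was not measured. RefSeq windows of 300 bases on GRCm38.p6 (250 before to 50 after the annotated start) were found for 7 of the 8 genes, with 2 windows for Tef. They were searched on both strands for the E-box CACGTG, the D-box TTATGTAA and its variant TTACGTAA, the core of the ROR response element as TAGGTCA or TGGGTCA, and the cAMP response element TGACGTCA. None of these motifs overlaps another in the windows printed. The window of Nfil3 held the ROR core TAGGTCA on the opposite strand, which reads TGACCTA in the capitals here and begins 12 bases before the start site; 2.61% of all 32851 windows held this motif.
Nfil3, chr13:52980990-52981289, minus strand: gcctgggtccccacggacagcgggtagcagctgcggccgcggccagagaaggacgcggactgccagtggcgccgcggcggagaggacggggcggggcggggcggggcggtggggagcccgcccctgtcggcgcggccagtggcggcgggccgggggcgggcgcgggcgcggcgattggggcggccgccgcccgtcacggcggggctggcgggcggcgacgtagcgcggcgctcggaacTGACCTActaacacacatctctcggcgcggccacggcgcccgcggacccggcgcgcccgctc
The E-box stood in both windows of Tef and in that of Bhlhe41, and in 7.15% of all windows. The cAMP response element stood in that of Hlf, and in 1.79% of all windows. In the stretches of these windows, capitals mark the motif and 8 bases stand on either side.
Tef, first window, chr15:81802538-81802559, plus strand: tgtggctcCACGTGctgcagct
Tef, second window, chr15:81811268-81811289, plus strand: tggcccagCACGTGtctacatc
Bhlhe41, chr6:145865560-145865581, minus strand: acgttccgCACGTGagctgggt
Hlf, chr11:90390911-90390934, minus strand: gcgggcccTGACGTCActcttgtc
No D-box was in the windows of the 8 genes, and 0.938% of all windows held TTATGTAA. The D-box, the site the PAR bZIP factors and NFIL3 share, occurred 2 times in the window of Per3, a period gene of the core clock, and in no other of 20 windows of core clock genes. Windows of Per1 and Ciart, 2 core clock repressor genes described with the tests, held 1 and 3 E-boxes; of the 20 windows 3 held an E-box, the other being that of Cry1, which passed no test here.
Per3, chr4:151044808-151044878, minus strand: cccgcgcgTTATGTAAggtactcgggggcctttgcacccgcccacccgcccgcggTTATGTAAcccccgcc
Per1, chr11:69098775-69098796, plus strand: cccaagtcCACGTGcagggatg
Ciart, chr3:95882259-95882352, minus strand: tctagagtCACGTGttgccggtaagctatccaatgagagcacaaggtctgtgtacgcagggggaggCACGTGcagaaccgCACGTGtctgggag
Cry1, chr10:85185101-85185122, minus strand: ccggtggtCACGTGgggtgcat
The windows of Dbp, Rora and Usp2 held none of these letters, which says nothing about sites outside the windows.

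Library totals ran from 5778978 to 10322972 counts, and no 2 libraries were alike within sampling noise (smallest chi-square per degree of freedom 12.64). The 7 hepatocyte markers summed to between 64702 and 99531 counts per 1000000 counts (CPM, on library sizes scaled by the trimmed mean of M-values) in every library, which fits the labelled tissue. Counts annotated to ribosomal RNA took 5.51% ± 1.04 of the B-LGND2 libraries, 1.20% ± 0.276 of the high fat vehicle libraries and 3.42% ± 0.296 of the normal diet libraries (mean ± SD, n = 3 each), with no overlap between groups. Libraries also differed by transcript length: the Spearman correlation over 12067 genes between transcript length and a library's deviation from the mean of the 9 libraries was -0.241 to 0.0826 in the B-LGND2 libraries, 0.299 to 0.359 in the high fat vehicle libraries and -0.504 to 0.204 in the normal diet libraries. The high fat vehicle libraries thus lay above all others, in the comparison with B-LGND2 and in that with the normal diet. Normal diet replicate 3 had the lowest value, and it was the lowest of the 9 libraries for Tef, Hlf, Rora, Bhlhe40 and Usp2. Normal diet replicate 1 had 12.7% of its counts in mitochondrially encoded genes, against 3.69% to 6.12% elsewhere. B-LGND2 replicate 2 had the lowest Dbp and Ciart of the 9 libraries and the highest Clock and Cry1, and 13 counts of Arntl against 1 to 3 in the other 8. It was the highest or lowest library for 7 of 13 core clock genes tested and for 2 of the 8 output genes. Normal diet replicate 3 was so for 8 and 5 of them.

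Levels are given per kilobase of annotated exon, so that genes of different length can be set side by side. The length is the union of all exons of a gene, which is 7867 bases for Tef and 2993 for Dbp. Their longest transcripts have 4403 and 1837 bases, while for Nfil3 both lengths are 2026 bases. The order of genes therefore depends on the length chosen. On this measure Bhlhe40, Tef and Nfil3 had the highest mean levels of the 8 on the high fat diet. Bhlhe41 was the scarcest in every group. In the B-LGND2 livers Bhlhe40 stood at 40.3 ± 9.96 CPM per kilobase, Tef at 32.7 ± 6.97 and Nfil3 at 24.7 ± 12.5. Their ranges overlapped from each to the next, and that of Nfil3 also overlapped Usp2, the fourth, at 14.8 ± 0.919. In the high fat vehicle livers the same 3 stood at 48.8 ± 0.483, 42.0 ± 2.66 and 43.3 ± 13.7 CPM per kilobase, and all exceeded Usp2, the fourth, at 18.4 ± 2.12, without overlap. In the normal diet livers Tef led at 29.9 ± 5.91 CPM per kilobase, followed by Bhlhe40 at 23.1 ± 6.54, and Usp2, Dbp and Nfil3 followed at 16.7 ± 2.76, 16.2 ± 3.85 and 16.0 ± 1.74 with overlapping ranges. Rora ranked 7 of 8 in each group, at a group mean of 3.95 to 4.69 CPM per kilobase, and Hlf ranked 5 or 6 at 7.39 to 13.3. Dbp ranked 6 in the B-LGND2 livers at 8.80 ± 4.38 CPM per kilobase, below Hlf with overlapping ranges. Bhlhe41 stood at 0.476 ± 0.105, 0.561 ± 0.212 and 0.715 ± 0.246 CPM per kilobase in the B-LGND2, high fat vehicle and normal diet livers. It had 18 to 43 counts per library, so that its fold changes are the least precise of the set.

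**Figure D1:**
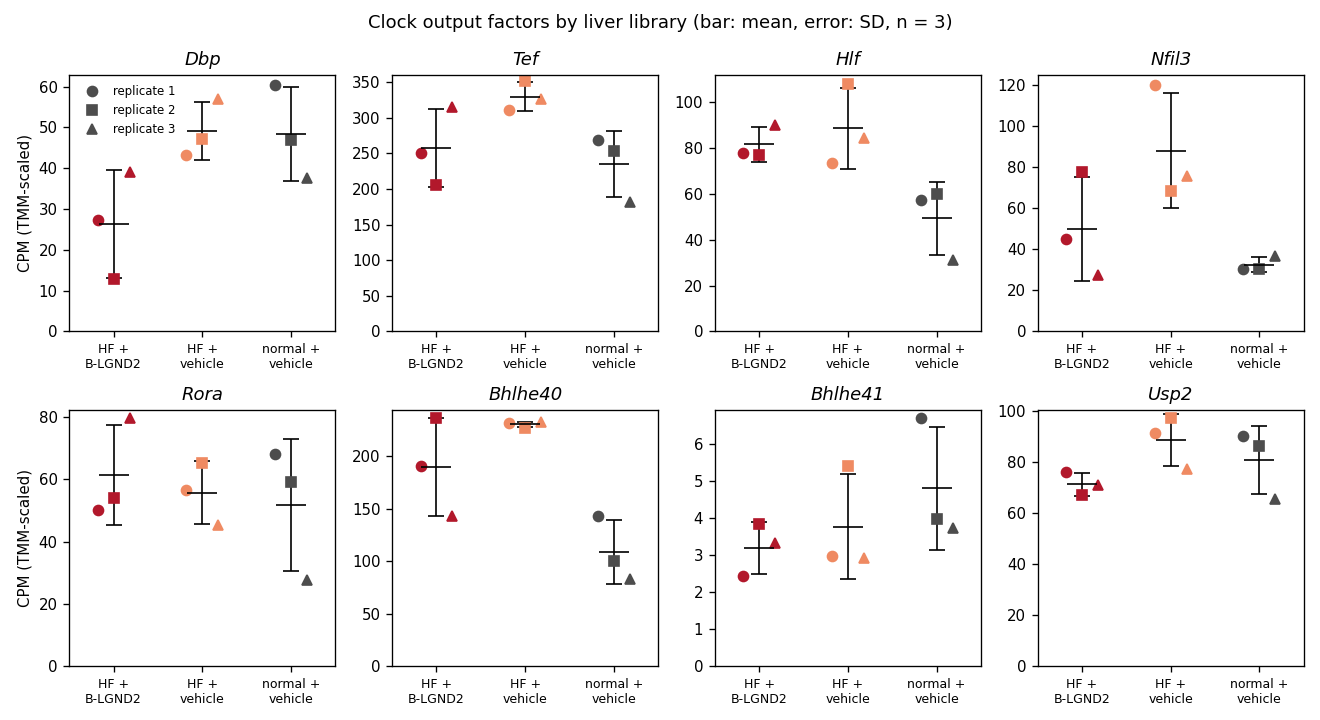
Level of each of the 8 genes in CPM (vertical axes, from 0) in the livers on high fat diet with B-LGND2, high fat diet with vehicle and normal diet with vehicle; each point is a library, its shape the replicate number, and bars give mean ± SD (n = 3). Nfil3 and Bhlhe40 lie above every normal diet library in all 3 high fat vehicle libraries, and Dbp lies below every high fat vehicle library in all 3 B-LGND2 libraries.

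The B-LGND2 and vehicle livers on the high fat diet were compared to ask what the ligand changed. Dbp, a strongly rhythmic PAR bZIP activator, was at 26.3 ± 13.1 CPM with B-LGND2 and 49.1 ± 7.02 CPM with vehicle (SD, n = 3 each), and none of the 8 genes passed the test. Dbp had 27.2, 12.8 and 39.0 CPM in the B-LGND2 libraries, against 43.2, 47.2 and 56.9 CPM in the vehicle libraries. All 3 treated libraries lay below all 3 vehicle libraries, with replicate 2 far below the other 2. The log2 fold change was -0.90 (SE 0.32, 95% interval -1.57 to -0.23, edgeR quasi-likelihood test, Benjamini-Hochberg adjusted p = 0.0972 across the genes tested). Across the 20 alternative fits its adjusted p ran from 0.0114 to 0.936. Dbp was called in 3 of them, including the fit without B-LGND2 replicate 3, where the log2 fold change was -1.29 (adjusted p = 0.0473, edgeR), while without replicate 2 it was -0.55. With the ribosomal RNA share of each library as a covariate the sign turned, to 1.48; that share did not overlap between the groups, so it and the treatment cannot be told apart. With offsets for transcript length and GC content, the first of which also separated these groups, the log2 fold change was -1.10 (adjusted p = 0.0409, edgeR).

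Tef and Hlf, which share the D-box with Dbp, did not pass either. Tef had 251, 206 and 315 CPM with B-LGND2 against 311, 352 and 327 CPM with vehicle, and the groups overlapped. Its log2 fold change was -0.36 (SE 0.22, 95% interval -0.83 to 0.11, edgeR adjusted p = 0.340). Hlf had 77.6, 76.8 and 90.1 CPM with B-LGND2 against 73.4, 108 and 84.5 CPM with vehicle, a log2 fold change of -0.12 (95% interval -0.65 to 0.41, edgeR adjusted p = 0.803), with the groups intermingled.

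Nfil3, the repressor of the D-box, had 45.1, 77.4 and 27.5 CPM with B-LGND2 and 120, 68.1 and 75.7 CPM with vehicle. The treated replicate 2 lay inside the vehicle range and the other 2 below it. The log2 fold change was -0.81 (SE 0.31, 95% interval -1.47 to -0.15, edgeR adjusted p = 0.127). It was -1.25 without B-LGND2 replicate 2, where the gene passed (adjusted p = 0.0347, edgeR), and adjusted p ran from 0.0230 to 0.473 over the 20 alternatives. Dbp and Nfil3 differed from each other in which treated library set the group mean: replicate 2 was the lowest for Dbp and the highest for Nfil3, and replicate 3 the highest for Dbp and the lowest for Nfil3. The log2 ratio of Dbp to Nfil3 counts, which needs no scaling between libraries, was -0.73, -2.60 and 0.50 in the B-LGND2 libraries, -1.47, -0.53 and -0.41 in the high fat vehicle libraries and 0.99, 0.63 and 0.04 in the normal diet libraries. The B-LGND2 libraries ran from below every vehicle library to within the normal diet range, and the vehicle libraries all lay below every normal diet library. The value 0 is no boundary here, because counts depend on gene length, with 2993 exon bases for Dbp and 2026 for Nfil3.

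**Figure D2:**
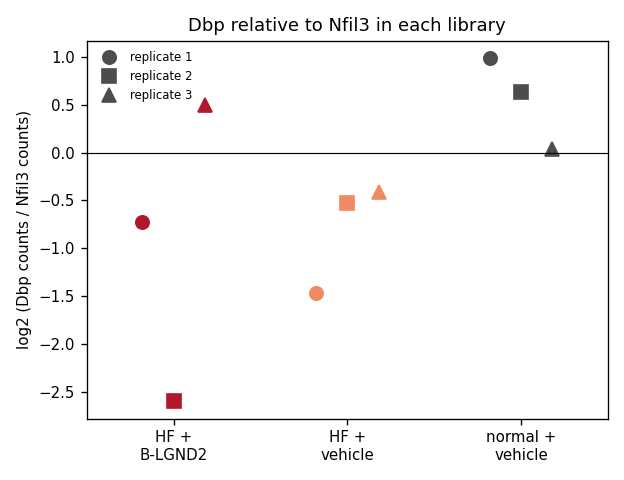
Log2 ratio of Dbp to Nfil3 counts in each liver library (vertical axis), by group, with the shape of the point giving the replicate number. The B-LGND2 libraries run from -2.60 to 0.50 and cover the range of the high fat vehicle libraries, which lie between -1.47 and -0.41; the normal diet libraries lie between 0.04 and 0.99.

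The remaining regulators and Usp2 differed less between B-LGND2 and vehicle than Dbp and Nfil3 did. Rora had 50.1, 54.1 and 79.8 CPM with B-LGND2 against 56.6, 65.4 and 45.2 CPM with vehicle, with overlapping groups (log2 fold change 0.14, 95% interval -0.49 to 0.76). Bhlhe40 had 190, 236 and 143 CPM with B-LGND2 against 231, 227 and 232 CPM with vehicle; the vehicle libraries were nearly alike and the treated ones spread on both sides of them (log2 fold change -0.28, 95% interval -0.78 to 0.23). Bhlhe41 had 2.43, 3.83 and 3.33 CPM with B-LGND2 against 2.97, 5.41 and 2.93 CPM with vehicle, again overlapping (log2 fold change -0.25, 95% interval -1.10 to 0.60). Usp2 had 75.8, 66.9 and 70.8 CPM with B-LGND2 against 91.4, 97.0 and 77.2 CPM with vehicle, without overlap, and a log2 fold change of -0.31 (95% interval -0.75 to 0.12). The edgeR adjusted p of these 4 genes lay between 0.371 for Usp2 and 0.815 for Rora.

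By count, 0 of the 8 genes passed for B-LGND2 against vehicle, where edgeR called 5.63% of all genes tested (3.07% higher and 2.56% lower). The unadjusted p was under 0.05 for 2 of them (Dbp and Nfil3), as for 23.7% of all genes. DESeq2 called 0 of the 8, where it called 1123 of all 12102 genes. Treated and vehicle libraries were fully separated in 2 of the 8 (Dbp and Usp2), as in 33.6% of all genes tested. The fold was below 0 for 7 of the 8, the median log2 fold change of the 8 was -0.30 and that of all genes 0.00. Without scaling beyond library size the median of all genes was -0.18, so that part of any common shift depends on the scaling.

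Other genes of the clock circuit were set beside them. Of 16 core clock genes 13 were tested, and edgeR called 2 lower with B-LGND2 and none higher. Over all genes it called 2.56% lower and 3.07% higher, and these shares also stand beside the counts of the lists below. Per1, a period gene, stood at 31.9 ± 4.57 CPM with B-LGND2 and 72.3 ± 8.14 CPM with vehicle (log2 fold change -1.18, SE 0.22, edgeR adjusted p = 0.00829). Ciart, a repressor of CLOCK and BMAL1, stood at 14.6 ± 5.91 CPM with B-LGND2 and 30.8 ± 2.84 CPM with vehicle (log2 fold change -1.08, SE 0.28, edgeR adjusted p = 0.0344), with 8.39 CPM in B-LGND2 replicate 2. Nr1d1 (-1.11) and Per3 (-0.98) did not pass, at edgeR adjusted p of 0.0792 and 0.0958. The median log2 fold change of the 13 was -0.49. In edgeR these 2 calls were also those among 9 targets of E-boxes, whose median was -0.98 with 8 of 9 below 0, and among which Wee1, a cell cycle kinase gene, stood at -1.29 (edgeR adjusted p = 0.0596). DESeq2 called Per1, Ciart, Nr1d1 and Wee1 lower among the E-box targets, where it called 502 of all 12102 genes lower. Among 4 tested genes of a list of 6 with ROR elements none passed edgeR with B-LGND2 and the median was -0.02; Nr1d1 was the 1 gene under an unadjusted p of 0.05, and DESeq2 called it lower. Cry1 and Clock had log2 fold changes of 0.27 and 0.14, and each changed sign when some library was left out.

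When single libraries were left out, Per1 kept its B-LGND2 call in 8 of 9 fits and narrowly missed the threshold without high fat vehicle replicate 1. Ciart kept its call in 3 of the 9: it was lost without B-LGND2 replicate 1 or 2, without each of the high fat vehicle libraries, and without normal diet replicate 2, with an adjusted p of up to 0.117. With the ribosomal RNA covariate both calls were lost, at log2 fold changes of -1.50 (adjusted p = 0.898, edgeR) for Per1 and 0.58 (adjusted p = 0.980, edgeR) for Ciart.

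Among genes linked to D-boxes in liver, the proposed targets of DBP, TEF, HLF and NFIL3, 11 of 12 were tested, and in edgeR Alas1 fell with B-LGND2 and none rose, while DESeq2 called Alas1, Nr1i3 and Cyp2a5 lower. Alas1, the first enzyme of heme synthesis, stood at 462 ± 37.2 CPM with B-LGND2 and 845 ± 234 CPM with vehicle (log2 fold change -0.87, SE 0.25, edgeR adjusted p = 0.0485). Nr1i3, encoding the drug-sensing receptor CAR (-0.99), the cytochrome P450 gene Cyp2a5 (-0.91) and Ppara (-0.80) did not pass, at edgeR adjusted p of 0.0605, 0.0644 and 0.0970; over the 11 alternatives that kept all libraries they were called in 6, 5 and 2. The median log2 fold change of the 11 was -0.85. The call of Alas1 survived in 2 of 9 such fits, those without normal diet replicate 1 or 3, and its adjusted p reached 0.221. It was called in 7 of the 11 alternatives that kept all libraries, and lost with limma-voom (adjusted p = 0.0559), with dispersions that were not robust (0.0532), with the replicate block (0.0834) and with the ribosomal RNA covariate (0.998). Cyp2a5 has a near-identical neighbour, Cyp2a4, which had 0 to 3 counts per library, and reads may have been split between the pair.

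Of 8 rhythmic liver transcripts, Tsc22d3 and Upp2 fell with B-LGND2 in edgeR, and DESeq2 called Wee1 lower as well. Tsc22d3, a transcriptional regulator also known as GILZ, stood at 46.4 ± 5.60 CPM with B-LGND2 and 88.2 ± 11 CPM with vehicle (log2 fold change -0.93, SE 0.23, edgeR adjusted p = 0.0315). Upp2, a uridine phosphorylase gene, stood at 413 ± 93.3 CPM with B-LGND2 and 768 ± 172 CPM with vehicle (log2 fold change -0.89, SE 0.25, edgeR adjusted p = 0.0452). Each kept its call in 3 of 9 such fits; both were lost without B-LGND2 replicate 1 or 2 and without each of the high fat vehicle libraries, Tsc22d3 also without B-LGND2 replicate 3 and Upp2 also without normal diet replicate 2, with adjusted p of up to 0.132 and 0.180. Both were also lost with the ribosomal RNA covariate (adjusted p = 0.998 each, edgeR), and Upp2 with the replicate block (0.0689) and with dispersions that were not robust (0.0506). Tspan4, a tetraspanin gene, stood at 0.78 and Wee1 at -1.29, and neither passed (edgeR adjusted p = 0.0865 and 0.0596); Wee1 was called in 4 of 10 alternatives that kept all libraries and in 3 of 9 that left out a library.

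Markers of other cells and of sample handling moved with the same comparison. The 14 macrophage markers summed to between 1273 and 1607 CPM with B-LGND2 and between 401 and 517 CPM with vehicle. None was at 0 in either group. All 14 had a fold above 0 without overlap between the groups, and edgeR called 10 of them higher. The 13 immediate early and heat shock genes respond to handling of tissue. They summed to between 202 and 298 CPM with B-LGND2 and between 341 and 414 CPM with vehicle, and none was at 0. Of the 11 tested 9 had a fold below 0, and edgeR called 3 lower. The 6 endothelial markers summed to between 186 and 208 CPM with B-LGND2 and between 102 and 141 CPM with vehicle, without overlap; all 6 had a fold above 0, Kdr rose (log2 fold change 0.91, edgeR adjusted p = 0.0417; DESeq2 called Cdh5 too), and none was at 0. Of the 7 hepatocyte markers Apoa1 rose (a 2.65-fold change, edgeR adjusted p = 0.0283). Alb, Apob and Cps1 were lower in all 3 treated libraries without passing, at -0.45, -0.60 and -0.70 (edgeR adjusted p = 0.244, 0.255 and 0.174). Ass1 stood at -0.54 with overlapping libraries, and Hnf4a and Ttr stood at 0.02 and 0.06, also without passing. Libraries were fully separated in 33.6% of all genes tested. Stellate cell markers summed to between 111 and 203 CPM with B-LGND2 and between 110 and 131 CPM with vehicle. The part of these markers in the values of the clock output genes was not tested. In bulk RNA, fewer cells of a type and less RNA per cell cannot be told apart.

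**Figure D3:**
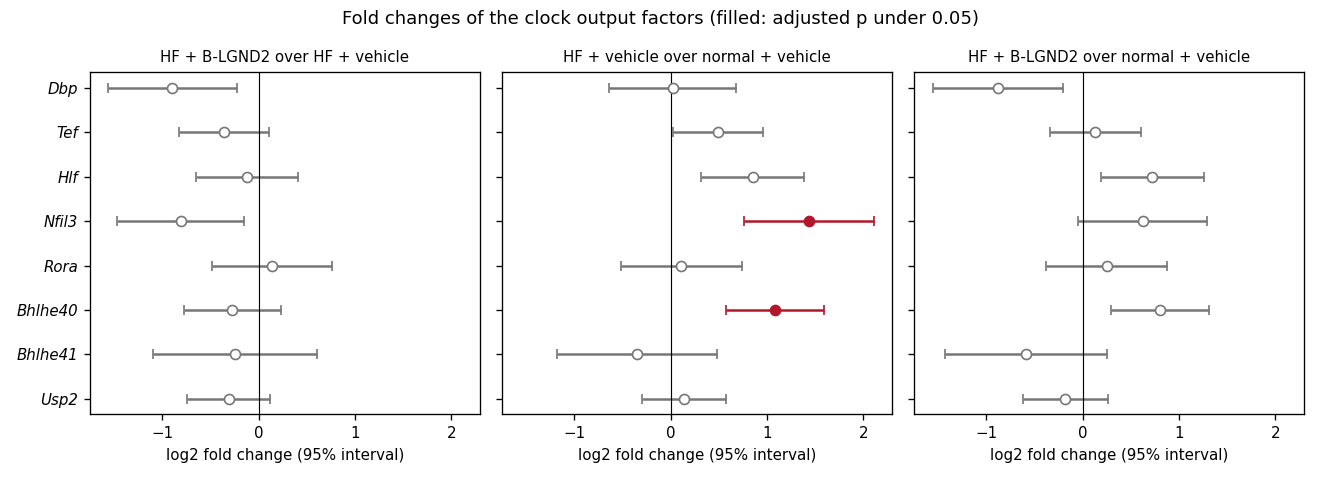
Log2 fold change of each of the 8 genes (horizontal axes) with its 95% interval, in the 3 comparisons; filled points passed an adjusted p of 0.05 in edgeR. Nfil3 and Bhlhe40 are filled in the comparison of vehicle livers on high fat against normal diet, at 1.43 and 1.08, and no point is filled in the other 2 comparisons.

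The vehicle livers on high fat and normal diet were compared to ask what the diet changed; the high fat vehicle libraries are the same as in the comparison with B-LGND2. Nfil3 and Bhlhe40, both repressors of clock-driven genes, rose on the high fat diet: Nfil3 to 87.8 ± 27.8 CPM against 32.5 ± 3.52 CPM on normal diet, and Bhlhe40 to 230 ± 2.27 CPM against 109 ± 30.8 CPM (SD, n = 3 each). Dbp was at 49.1 ± 7.02 CPM on the high fat diet and 48.4 ± 11.5 CPM on normal diet. That made 2 of the 8 genes higher and none lower, where edgeR called 1.50% of all genes higher and 1.49% lower (2.99% together). The unadjusted p was under 0.05 for 4 of the 8, as for 22.4% of all genes.

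Nfil3 had 120, 68.1 and 75.7 CPM on the high fat diet, against 30.4, 30.4 and 36.5 CPM on normal diet. The groups did not overlap, and high fat replicate 1 stood well above the other 2. The log2 fold change was 1.43 (SE 0.32, 95% interval 0.76 to 2.11, a 2.70-fold change, edgeR adjusted p = 0.0293). Bhlhe40 had 231, 227 and 232 CPM on the high fat diet, against 143, 99.7 and 83.3 CPM on normal diet, again without overlap and with the high fat libraries nearly alike. Its log2 fold change was 1.08 (SE 0.24, 95% interval 0.57 to 1.59, a 2.12-fold change, edgeR adjusted p = 0.0300).

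With single libraries left out, both calls were lost in the same 5 of 9 fits: without each of the high fat vehicle libraries and without normal diet replicate 2 or 3. In these 5, adjusted p was 0.0510 to 0.130 for Nfil3 and 0.0920 to 0.108 for Bhlhe40, while over all 9 fits the log2 fold changes stayed between 1.15 and 1.59 for Nfil3 and between 0.92 and 1.33 for Bhlhe40. Over the other alternatives each was called in 10 of 11. The exception was the fit with the ribosomal RNA share of each library as a covariate, with log2 fold changes of 2.81 (adjusted p = 0.0849, edgeR) for Nfil3 and 1.58 (adjusted p = 0.339, edgeR) for Bhlhe40. That share did not overlap between the groups, so it and the diet cannot be told apart. The high fat vehicle libraries also stood apart in the trend with transcript length; with offsets for transcript length and GC content the log2 fold changes were 1.50 (adjusted p = 0.0336, edgeR) for Nfil3 and 1.05 (adjusted p = 0.0243, edgeR) for Bhlhe40.

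Hlf and Tef were higher on the high fat diet in every library without passing. Hlf had 73.4, 108 and 84.5 CPM on the high fat diet, against 57.1, 59.9 and 31.1 CPM on normal diet, a log2 fold change of 0.85 (SE 0.25, 95% interval 0.31 to 1.38, edgeR adjusted p = 0.0718). It passed in the DESeq2 Wald test (adjusted p = 0.0307) and without normal diet replicate 1 (adjusted p = 0.0291, edgeR), and its adjusted p ran from 0.0182 to 0.741 over the 20 alternatives. Tef had 311, 352 and 327 CPM on the high fat diet, against 269, 254 and 182 CPM on normal diet (log2 fold change 0.49, SE 0.22, 95% interval 0.02 to 0.96, edgeR adjusted p = 0.205). The lowest normal diet library was replicate 3 for both genes.

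Dbp, the third PAR bZIP gene, had 43.2, 47.2 and 56.9 CPM on the high fat diet, against 60.5, 47.0 and 37.6 CPM on normal diet, and the groups covered the same range (log2 fold change 0.02, 95% interval -0.64 to 0.68, edgeR adjusted p = 0.975). Rora had 56.6, 65.4 and 45.2 CPM against 68.0, 59.2 and 27.8 CPM on normal diet (log2 fold change 0.11, 95% interval -0.52 to 0.74), with normal diet replicate 3 far below the rest. Usp2 had 91.4, 97.0 and 77.2 CPM on the high fat diet against 90.1, 86.3 and 65.4 CPM on normal diet (log2 fold change 0.14, 95% interval -0.30 to 0.57). Bhlhe41 had 2.97, 5.41 and 2.93 CPM on the high fat diet against 6.71, 3.97 and 3.73 CPM on normal diet (log2 fold change -0.35, 95% interval -1.18 to 0.48). These 3 overlapped between the groups, with edgeR adjusted p of 0.859, 0.734 and 0.633. The DEC genes had values of unlike sign, with Bhlhe40 called and Bhlhe41 not; the difference between them was not tested.

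Diet groups were fully separated for 4 of the 8 genes (Tef, Hlf, Nfil3 and Bhlhe40), as for 30.1% of all genes tested. The fold was above 0 for 7 of the 8, with a median log2 fold change of 0.31 against 0.01 for all genes. Without scaling beyond library size the median of all genes was 0.17, and Nfil3 and Bhlhe40 were still called, at 1.59 and 1.24.

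Among the 13 core clock genes tested, edgeR called Per1 and Per2 higher on the high fat diet and none lower. Over all genes it called 1.50% higher and 1.49% lower, and these shares also stand beside the counts of the diet lists below. Per1 stood at 72.3 ± 8.14 CPM on the high fat diet and 28.4 ± 3.60 CPM on normal diet (log2 fold change 1.35, SE 0.22, edgeR adjusted p = 0.00703), and it was called in all 9 fits with a library left out and in 10 of 11 other alternatives. Per2 stood at 74.8 ± 8.76 CPM on the high fat diet and 29.2 ± 13 CPM on normal diet (log2 fold change 1.36, SE 0.28, edgeR adjusted p = 0.0229). The call of Per2 was lost in the same 5 fits as that of Nfil3, with an adjusted p of up to 0.0881, and in the fit of just the pair of groups compared (0.0548). With the ribosomal RNA covariate neither passed, at 1.51 (adjusted p = 0.319, edgeR) for Per1 and 0.87 (adjusted p = 0.665, edgeR) for Per2. Cry2 (0.79) and Nr1d1 (1.23) did not pass, at edgeR adjusted p of 0.0677 and 0.0709, while DESeq2 called both higher. The median of the 13 was 0.51, and that of the 9 E-box targets, which include both called genes, was 0.70. The 4 tested genes with ROR elements were above 0 without passing (median 0.44, 1 under an unadjusted p of 0.05), and DESeq2 called Nr1d1.

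Of the 11 tested D-box genes, Ppara, the transcription factor of fat oxidation, rose on the high fat diet in edgeR and none fell: it stood at 203 ± 26.2 CPM there and 83.7 ± 31.7 CPM on normal diet (log2 fold change 1.28, SE 0.28, edgeR adjusted p = 0.0290). Its call was lost in the same 5 fits, with an adjusted p of up to 0.108, in the fit of just the pair of groups compared (0.0563) and with the ribosomal RNA covariate (0.713). DESeq2 called Ppara and Nr1i3 higher and Cyp2a5 lower. Nr1i3 stood at 0.95, Cyp2a5 at -0.86 and the hormone gene Fgf21 at 1.59, with edgeR adjusted p of 0.0826, 0.0890 and 0.169. The list had 7 genes above and 4 below 0 and a median of 0.46. None of the 8 rhythmic liver transcripts passed edgeR for diet (3 had an unadjusted p below 0.05, and DESeq2 called Noct); Noct, encoding the deadenylase-like protein nocturnin, stood at 0.97 (edgeR adjusted p = 0.0521) and the median was 0.23.

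The handling genes summed to between 341 and 414 CPM on the high fat diet and between 200 and 243 CPM on normal diet. Of the 11 tested 10 had a fold above 0, edgeR called 3 higher, and none was at 0. The 14 macrophage markers summed to between 401 and 517 CPM on the high fat diet and between 407 and 657 CPM on normal diet, and none of them passed. The part of the handling genes in the rise of Nfil3 and Bhlhe40 was not tested.

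**Figure D4:**
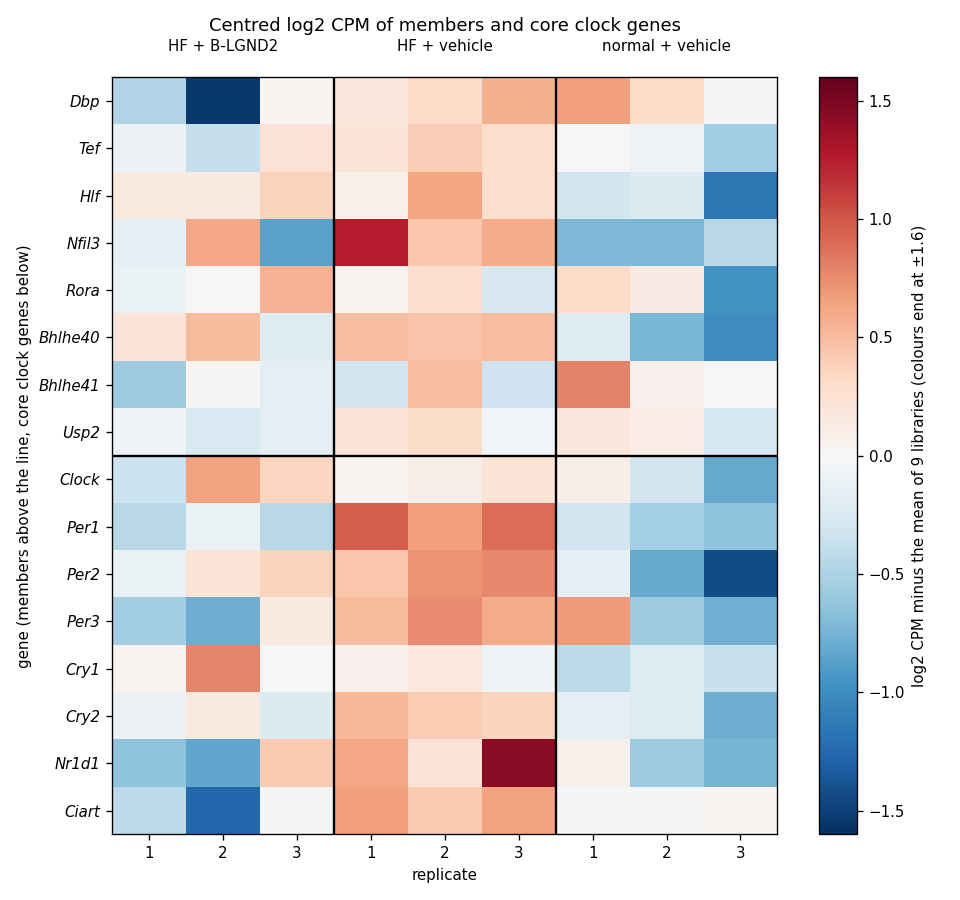
Log2 CPM of the 8 genes (above the line) and of 8 core clock genes (below it) in each of the 9 libraries, minus the mean of that gene over the 9 libraries; red is higher, blue lower, and columns are replicates within the 3 groups. Per1 is red in all high fat vehicle libraries, Dbp and Ciart are at their lowest in B-LGND2 replicate 2, and Hlf, Rora, Bhlhe40 and Per2 are at theirs in normal diet replicate 3.

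The B-LGND2 livers on the high fat diet were also set against the normal diet livers. This comparison shares its libraries with the other 2, so its values stand beside theirs and are no further evidence. None of the 8 genes passed, where edgeR called 2.93% of all genes tested (1.59% higher and 1.33% lower). The unadjusted p was under 0.05 for 3 of them, as for 19.4% of all genes. DESeq2 called Bhlhe40, where it called 660 of all 12102 genes. Bhlhe40 had 190, 236 and 143 CPM with B-LGND2, against 143, 99.7 and 83.3 CPM on normal diet, and the lowest treated library lay just within the normal diet range. Its log2 fold change was 0.80 (SE 0.24, 95% interval 0.29 to 1.31, edgeR adjusted p = 0.0830). It passed without normal diet replicate 1, at 1.05 (adjusted p = 0.0256, edgeR), and its adjusted p ran from 0.0256 to 0.922 over the 20 alternatives.

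Hlf was the 1 gene of the 8 whose libraries did not overlap between B-LGND2 and normal diet livers, as in 20.5% of all genes tested: it stood at 81.5 ± 7.45 CPM with B-LGND2 and 49.4 ± 15.9 CPM on normal diet (log2 fold change 0.72, SE 0.25, edgeR adjusted p = 0.133). Dbp stood at 26.3 ± 13.1 CPM with B-LGND2 and 48.4 ± 11.5 CPM on normal diet (log2 fold change -0.88, SE 0.32, edgeR adjusted p = 0.145), with 1 treated library inside the normal diet range. Without B-LGND2 replicate 2 that log2 fold change was -0.55. Nfil3 stood at 50 ± 25.3 CPM with B-LGND2 and 32.5 ± 3.52 CPM on normal diet (log2 fold change 0.62, 95% interval -0.05 to 1.29), and its treated replicate 3 was below every normal diet library. Tef (0.13), Rora (0.25), Bhlhe41 (-0.59) and Usp2 (-0.18) had edgeR adjusted p between 0.432 and 0.791. The median of the 8 was 0.19, and that of all genes -0.01.

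In this comparison none of the 13 core clock genes, 9 E-box targets or 4 ROR element genes tested passed edgeR. The unadjusted p was under 0.05 for 6, 3 and 1 of them, as for 19.4% of all genes. DESeq2 called 1, 0 and 0, where it called 660 of all 12102 genes. Cyp2a5 was lower with B-LGND2 than on normal diet among the D-box genes, at 157 ± 46.4 CPM with B-LGND2 and 534 ± 156 CPM on normal diet (log2 fold change -1.77, SE 0.28, edgeR adjusted p = 0.00364), and it was called in all 9 fits with a library left out and in 10 of 11 other alternatives, the exception being the ribosomal RNA covariate (-2.75, adjusted p = 0.0966). DESeq2 also called Acot3, an acyl-CoA thioesterase gene, lower and Fgf21 higher, at edgeR log2 fold changes of -1.91 and 2.25 (edgeR adjusted p = 0.0735 and 0.0686). Upp2 fell among the rhythmic transcripts, to 413 ± 93.3 CPM with B-LGND2 against 813 ± 178 CPM on normal diet (log2 fold change -0.98, SE 0.25, edgeR adjusted p = 0.0434). Its call was kept without B-LGND2 replicate 3 or normal diet replicate 1 and lost without any of the other 7 libraries, with an adjusted p of up to 0.158, and it was called in 7 of 11 other alternatives. Macrophage markers moved here as well, at 1273 to 1607 CPM with B-LGND2 and 407 to 657 CPM on normal diet. All 14 had a fold above 0, and edgeR called 10 of them higher. Of the 6 endothelial markers 5 had a fold above 0, and edgeR called 3 higher.

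Among themselves, the 8 genes fell into profiles that were close and profiles that were far apart. The distance used was the root mean square difference between 2 genes' log2 CPM over the 9 libraries, each centred on its own mean. Tef and Usp2 were the closest pair at 0.22, followed by Tef with Hlf and Tef with Rora at 0.31 each, while Dbp and Nfil3, the activator and the repressor of the D-box, were the farthest apart at 1.05. Bhlhe40 lay 0.34 from Hlf and 0.43 from Nfil3, and 0.72 from Bhlhe41. Among 10362 other protein-coding genes whose mean log2 CPM reached 1, the most alike to Nfil3 were Thap2 (0.25) and Fosl2 (0.32), where the median gene lay at 0.79. Closest to Bhlhe40 were Cdcp1 and Etv3 (0.16 each, median gene 0.65), and closest to Dbp were Gm4952 and Tank (0.25 each, median 0.73). Closest to Hlf were Sbf1 (0.12) and Kif1c (0.13), and closest to Tef were Pacs2 and Mst1 (0.11 each). Rora was closest to Ripor1 (0.13) and 4931414P19Rik (0.14), Usp2 to Elmod3 (0.08) and Aatf (0.09), and Bhlhe41 to Tubgcp4 (0.17) and Intu (0.18). These distances describe 9 libraries that share their groups, and they depend on how much each profile varied. The profile of Usp2 varied least (SD 0.20 on the log2 scale), against 0.30 for Tef, 0.63 for Dbp and 0.71 for Nfil3. Profiles that vary little lie close together whatever their pattern, and profiles that vary much can lie far apart. A distance alone thus does not show a shared or an opposed profile.

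The genes lie on 6 chromosomes of GRCm38: Dbp at chr7:45705088-45710203, Tef at chr15:81802421-81826863, Hlf at chr11:90336536-90390895, Nfil3 at chr13:52967209-52981073, Rora at chr9:68653786-69388246, Usp2 at chr9:44067021-44095627, Bhlhe40 at chr6:108660629-108666925 and Bhlhe41 at chr6:145858243-145865558. All are protein coding. The exons of Dbp share 539 bases with those of Sphk2, a sphingosine kinase gene on the other strand, which had 303 to 1116 counts with B-LGND2, 502 to 578 on high fat diet with vehicle and 404 to 481 on normal diet. The sources used here do not state how strand was treated in counting, so reads of the shared stretch cannot be told apart. Antisense genes that share exon bases with Tef, Rora and Bhlhe40 had at most 6 counts in a library. Bhlhe41 shares 1280 exon bases with Gm43909, and Usp2 shares 200 with each of Gm39325 and Gm49380, all on the other strand. These overlapping genes are not among the 45513 genes counted. Hlf and Nfil3 share no exon base with another gene of the annotation.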

How the data were processed

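The deposited file is a table of raw read counts per Ensembl gene, whole numbers without normalization, made by the authors; the submitters' processing notes name the build GRCm38.p3, HTSeq 0.6.1p1, Bowtie2 2.2.4, TopHat2 2.0.13, DESeq2 1.6.3 and SAMtools 0.1.19. The sources used here do not give the annotation release, strand setting or read assignment mode. Columns were matched to libraries by name. Symbols, coordinates and lengths came from GENCODE M21 (GRCm38), which named 44671 of 45513 gene IDs. Promoter windows came from RefSeq.

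Counts were analysed in R 4.3.3 with edgeR 4.0.16. After filterByExpr (minimum count 10; 99.73% or more of each library kept) and TMM scaling, a robust quasi-likelihood model of the 3 groups was fitted on the 9 libraries together (6 residual degrees of freedom), with Benjamini-Hochberg adjustment over all genes tested and a threshold of 0.05. The SE is the absolute log2 fold change over the square root of F, and 95% intervals use it. Log2 CPM used a prior count of 2. Counts come from amplified libraries without molecular identifiers. An exact permutation test of 3 against 3 libraries cannot go below 0.1, so none was run. The fit was tested on simulated counts, with 100 genes changed at each size. For B-LGND2 against vehicle, diet, and B-LGND2 against normal diet, it recovered 24%, 34% and 28% of log2 changes of 1. Of log2 changes of 2 it recovered 83%, 86% and 87%. A gene that did not pass may thus still have changed by about 1 on the log2 scale.

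The members and gene lists were chosen with earlier results of these data known. All 8 members are named, and of each list up to 4 genes with the smallest p per comparison, plus the 2 genes most alike to each member. Arntl was named after its values were seen, and some list members are not reported here by name. Alternatives were DESeq2 1.42.0 size factors or its Wald test, no scaling, no filter, 50 counts in 3 libraries, limma-voom (limma 3.58.1), the replicate number as a block, a fit of just the pair of groups compared, dispersions that were not robust, the ribosomal RNA share as a covariate, offsets for transcript length and GC content (mgcv 1.9.3), and each library left out.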

Additional observations from a re-analysis of the deposited data

How the results depend on the processing

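For B-LGND2 against vehicle, the count of 0 clock output genes became 2 without a filter on low counts (Dbp and Nfil3 lower) and 1 with the length and GC correction (Dbp), and was 0 to 1 over the fits that left out a library. For diet, the count of 2 became 3 without a filter and by the DESeq2 Wald test (Hlf added, adjusted p = 0.0182 and 0.0307) and 0 with the ribosomal RNA covariate, and ran from 0 to 3 over the fits that left out a library. For B-LGND2 livers against normal diet, the count of 0 became 2 without a filter (Dbp and Bhlhe40), 1 by the DESeq2 Wald test (Bhlhe40) and 1 with the length and GC correction (Hlf), and was 0 to 1 over the fits that left out a library. The cause was not tested. Counts over all genes moved too: in the 3 comparisons, 681, 362 and 354 genes became 1345, 1182 and 751 without a filter, 1123, 969 and 660 by DESeq2, 1420, 153 and 144 with only the groups compared, 492, 203 and 253 with the replicate block, and 2, 1 and 12 with the ribosomal RNA covariate, and ran from 100 to 1439, 35 to 1860 and 111 to 639 over the fits that left out a library. Without scaling, 31.1% of the B-LGND2 calls against vehicle were higher, against 54.5% with it, and 72.6% of the diet calls, against 50.3%.

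Of 477 refits of the 8 genes, 427 kept direction and side of the threshold and 25 changed sign. These refits cover 24 results, of which only Nfil3 and Bhlhe40 for diet were called in the main fit. Keeping the side thus mostly meant staying uncalled, and Nfil3 and Bhlhe40 for diet were called in 14 of 20 alternatives each. Log2 fold changes that changed sign with the ribosomal RNA covariate were, for B-LGND2 against vehicle, Dbp 1.48, Tef 0.62, Hlf 0.23, Bhlhe41 0.14, Ciart 0.58, Nr1d1 2.05, Per3 1.31, Cry1 -1.04, Ppara 0.19 and Tspan4 -0.01; for diet, Dbp -1.24, Tef -0.02, Rora -0.44, Nr1d1 -0.45 and Cyp2a5 0.09; and for B-LGND2 livers against normal diet, Dbp 0.24, Nfil3 -0.81, Ciart 0.29 and Fgf21 -0.14. With the length and GC correction these were Hlf 0.12 for B-LGND2 against vehicle, Dbp -0.02, Rora -0.07 and Usp2 -0.04 for diet, and Tef -0.10 and Nr1d1 -0.09 for B-LGND2 livers against normal diet. Without scaling, Rora and Clock turned to -0.01 each for B-LGND2 against vehicle. Leaving out a library turned the sign of Hlf (-0.24 to 0.04), Rora (-0.10 to 0.29), Bhlhe41 (-0.41 to 0.11), Cry1 (-0.01 to 0.41) and Clock (-0.07 to 0.41) for B-LGND2 against vehicle, of Dbp (-0.13 to 0.22) and Rora (-0.19 to 0.36) for diet, and of Tef (-0.04 to 0.27), Rora (-0.06 to 0.49) and Nr1d1 (-0.37 to 0.41) for B-LGND2 livers against normal diet.

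Same-numbered libraries did not deviate together (correlations from -0.193 to 0.124), and 4, 2 and 1 of 6 libraries correlated best with their own number in the 3 comparisons. With the replicate block 0, 2 and 0 of the 8 genes were called. Bhlhe41 was removed by the filter of 50 counts, and its 18 to 43 counts per library limit what can be seen of it.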
